A study of Mus musculus with 10 samples.

Results

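A set of 10 genes that build the liver's lipoproteins were followed in wild-type and Nr1d1 knockout mouse liver: the apolipoprotein genes Apoa1, Apoa2, Apoa4, Apoa5, Apob, Apoc1, Apoc3, Apoe and Apom, and Mttp, which encodes the large subunit of the microsomal triglyceride transfer protein. They were taken by gene symbol from the array annotation. All 10 were found, with 1 probe set each, among 19933 genes tested, and no filter on low values was applied. Nr1d1 encodes Rev-erb alpha, a nuclear receptor that binds heme and represses transcription as part of the circadian clock. The study compared 5 wild-type (WT) livers with 5 livers of the genotype Nr1d1-/- (KO), 1 mouse per Affymetrix Mouse Gene 1.0 ST array. Replicates are numbered here in order of deposit within a genotype, so that a number names a liver and pairs none. Every mouse was male, of the C57Bl/6 strain, 10 to 12 weeks old and on normal chow. The light cycle was 12 h on and 12 h off, and the livers were taken at ZT10, late in the light phase, 10 h after the lights came on. The WT mice were purchased, whereas the KO line came from another laboratory and was crossed back to C57Bl/6 over 7 or more generations. Genotype and origin therefore cannot be told apart in these data. The labels do not say which part of the gene is deleted.

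Lipoproteins carry triglyceride and cholesterol through the blood. In the hepatocyte, the transfer protein loads lipid onto apolipoprotein B while it is being made, which starts the very low density lipoprotein (VLDL) particle. Apolipoproteins A-I and A-II form the scaffold of high density lipoprotein (HDL), and the smaller exchangeable apolipoproteins move between particles and set how fast lipases and receptors act on them. In the mouse, Apoa1, Apoc3, Apoa4 and Apoa5 lie side by side in one gene cluster, and Apoe lies in another with Apoc1, Apoc4 and Apoc2.

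Of these genes, only Apoa4 differed between the genotypes past the threshold. Apoa4, which encodes a lipid-binding apolipoprotein of intestine and liver, was 2.08-fold higher in KO liver. The other 9 genes did not pass, and 8 of them lay within 0.071 log2 units of no difference. The exception was Apom, which encodes the HDL-bound carrier of sphingosine-1-phosphate and read 0.22 lower in KO. Over all genes tested 5.61% passed the same test (limma, Benjamini-Hochberg adjusted p under 0.05), 3.17% higher and 2.44% lower in KO, against 1 of 10 here.

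The deposited values are normalized intensities, which were put on a log2 scale, so that a difference of 1 is a doubling. The array medians lay between 156 and 165 in intensity, and the table holds no detection or saturation calls. A mean over 13 was reached by 6 of the 10 genes, against a maximum of 14.16 in the whole table. Among all 138 genes with a mean over 13, 9 passed the test (6.52%), and the median size of their difference was 0.042, against 0.058 over all genes. The hepatocyte markers were high in every liver, with a mean over 6 genes between 13.57 and 13.64 in WT and between 13.54 and 13.63 in KO, and 0 of 6 passed. In whole liver, fewer cells of a type and less RNA per cell cannot be told apart. The targeted gene was not lower in KO by its only probe set. Nr1d1 read 10.00, 9.80, 9.60, 9.85 and 9.64 in the WT livers and 9.29, 9.77, 10.54, 9.95 and 10.04 in the KO livers. Since the deleted part is unknown here, this reading does not check the genotype.

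The start regions of Apoa4 and of Apoa1 and Apoa5 from the same cluster are shown because only Apoa4 passed the test. Apoc3 lies between Apoa1 and Apoa4. RefSeq's promoter table (GRCm38.p6) held 8 of the 10 genes with 12 start sites, without Apoc1 and Apoc3. The 250 bases before the first listed start site of each gene are given 5′ to 3′ on the plus strand of chromosome 9. Apoa4 is at chr9:46240594-46240843, Apoa1 at chr9:46228380-46228629 and Apoa5 at chr9:46268358-46268607. Capitals mark GGGTCA, a nuclear receptor half-site, on either strand. They also mark the TATA box, TATAAA.
Apoa4: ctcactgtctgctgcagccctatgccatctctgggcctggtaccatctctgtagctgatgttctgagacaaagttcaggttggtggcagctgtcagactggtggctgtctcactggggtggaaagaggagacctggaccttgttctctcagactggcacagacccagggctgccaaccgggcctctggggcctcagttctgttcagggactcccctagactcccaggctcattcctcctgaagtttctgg
Apoa1: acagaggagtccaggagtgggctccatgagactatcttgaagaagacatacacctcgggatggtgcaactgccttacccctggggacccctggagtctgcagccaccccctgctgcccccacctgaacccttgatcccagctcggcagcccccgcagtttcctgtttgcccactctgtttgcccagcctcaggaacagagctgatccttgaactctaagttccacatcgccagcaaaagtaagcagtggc
Apoa5: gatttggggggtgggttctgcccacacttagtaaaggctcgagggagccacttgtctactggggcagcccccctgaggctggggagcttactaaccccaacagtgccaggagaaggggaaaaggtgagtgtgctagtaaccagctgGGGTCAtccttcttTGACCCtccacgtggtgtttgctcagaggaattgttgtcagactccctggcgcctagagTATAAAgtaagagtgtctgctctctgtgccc

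Exact letters were searched on both strands in windows of 300 bases, from 250 before to 50 after each start. AGGTCA is the half-site bound by Rev-erb and other nuclear receptors. Its extended form with a leading T, TAGGTCA, always contains the shorter letters. The search also used the GGGTCA half-site, an element of Hnf4a with the letters CAAAGTCCA, the cyclic AMP response element TGACGTCA and the TATA box. None of these 6 motifs was found in the windows of Apoa4 or Apoa1. The Apoa5 window held GGGTCA on opposite strands at 104 and 90 bases before the start and TATAAA at 31 bases. AGGTCA was found in 1 of the 12 windows, at the second start site of Apoa2, and in 16.3% of all 32851 windows. GGGTCA was found in 4 of 12, in windows of Apoa5, Apoe and Apom, and in 13.7% of all. TATAAA was found in 5 of 12 and in 13.6% of all, while TAGGTCA (2.61% of all), CAAAGTCCA (0.475%) and TGACGTCA (1.79%) were found in 0 of 12. Windows of different start sites of one gene can overlap, as those of Apoa5 do. A match here is a match of letters, not a measured site. Elements that differ by a letter are missed, so a window without a match can still hold one. The Apoa4 window holds CAAAGTTCA, which differs by 1 letter from CAAAGTCCA and was not searched for.

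Apoa4 separated the genotypes in every liver. It read 10.59, 10.69, 10.53, 10.60 and 10.56 in WT livers 1 to 5 and 11.62, 11.14, 12.31, 11.49 and 11.70 in KO livers 1 to 5 (log2 intensity). The lowest KO liver lay above the highest WT liver, which held for 3.99% of all genes, while the reverse order held for 3.02%. The group means were 10.59 ± 0.058 and 11.65 ± 0.43 (SD, n = 5 each), and the difference was 1.06 with SE 0.16 (limma adjusted p = 0.00187). The 95% interval of the fold change ran from 1.64 to 2.65. Among the 632 genes higher in KO, the increase of Apoa4 ranked 44. Its call held in all 19 alternative settings, with limma adjusted p up to 0.0358. No setting gave the gene a variance of its own in each genotype. The interval and these p-values therefore do not allow for the wider spread in KO.

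**Figure D1:**
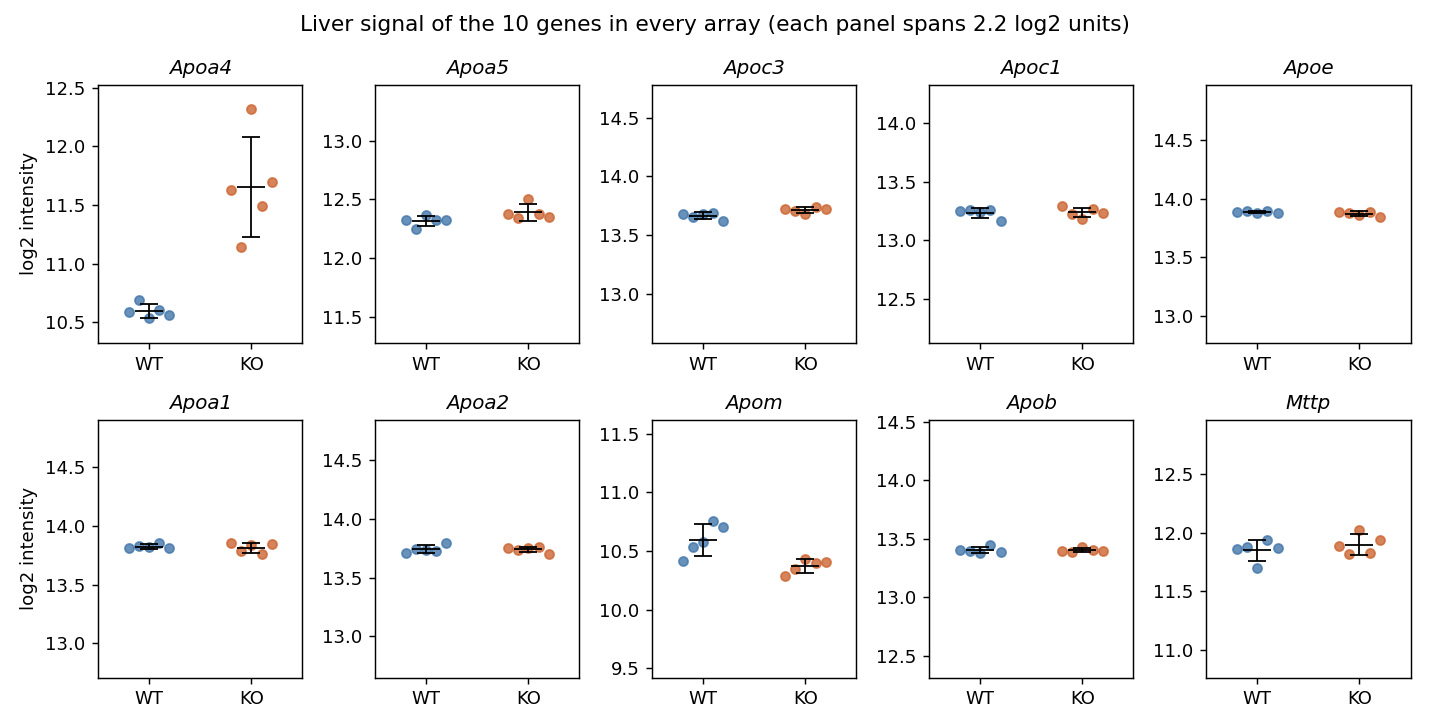
Log2 intensity of each of the 10 genes in 5 WT and 5 KO livers, 1 point per array, with the mean and SD in black. Each panel spans the same number of log2 units. The Apoa4 points separate, those of Apom lie lower in KO with a slight overlap, and the other genes sit at nearly one level in both genotypes.

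The KO livers also differed among themselves in Apoa4. Their values spanned 1.18 log2 units against 0.15 in WT, and the SD in KO was 7.38 times that in WT. Over all genes, 0.547% had a larger SD among KO livers. KO replicate 3 was highest and KO replicate 2 lowest. Without KO replicate 3 the difference was 0.89 (limma adjusted p = 0.000407), and without KO replicate 2 it was 1.19 (limma adjusted p = 0.000578).

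KO replicate 3 was also the highest KO liver for Apoa5, Apob, Apom and Mttp, so for 5 of the 10 genes, and KO replicate 2 was the lowest for Apoa4, Apoa5, Apob and Mttp. Over all genes, KO replicate 3 was highest among the KO livers in 24.4% and KO replicate 2 lowest in 15.3%. Among WT livers, replicate 4 was highest for 6 genes (16.9% of all genes), namely Apoa1, Apob, Apoc1, Apoc3, Apom and Mttp. Outside Apoa4, the KO livers spanned 0.042 log2 units in Apob and at most 0.21, in Mttp, so these orders rest on small steps. The median SD over the 10 genes was 0.037 in WT and 0.042 in KO, against 0.095 and 0.098 over all genes.

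The neighbours of Apoa4 in its cluster showed no such rise in their readings. Apoa5, which encodes an activator of lipoprotein lipase, read 12.32, 12.24, 12.37, 12.33 and 12.32 in WT and 12.37, 12.34, 12.51, 12.38 and 12.34 in KO. The KO values lay slightly higher and overlapped those of WT. The difference was 0.071 (SE 0.047, limma adjusted p = 0.521). Apoc3, which encodes an inhibitor of lipoprotein lipase and of particle uptake, read between 13.62 and 13.69 in WT and between 13.68 and 13.74 in KO, with medians of 13.68 and 13.72. Its difference was 0.048 (SE 0.038, limma adjusted p = 0.631). Apoa1, which encodes the main protein of HDL, differed by -0.0082 (SE 0.040, limma adjusted p = 0.960). Apoa1 and Apoc3 read over 13, near the table's maximum of 14.16, and there are no saturation calls. Whether differences are compressed at such levels was not tested.

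The inequality within the cluster was tested on the log2 ratio within each array. The Apoa4 difference exceeded that of Apoa1 by 1.07, that of Apoc3 by 1.01 and that of Apoa5 by 0.99. In each of the 3 ratios all KO livers lay above all WT livers. Each gave p = 0.00794 in the exact two-sided permutation test over 252 assignments of the arrays, the smallest p this design allows, and 0.00794 after adjustment over the 3. Apoa4 by itself already separated the genotypes, and its neighbours varied little between livers. The 3 tests therefore repeat that separation and are not independent of it or of each other. Beyond the cluster, Sik3 and Pafah1b2 on one side (0.23 and -0.17) and Zpr1 and Bud13 on the other (-0.25 and -0.21) did not pass.

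**Figure D2:**
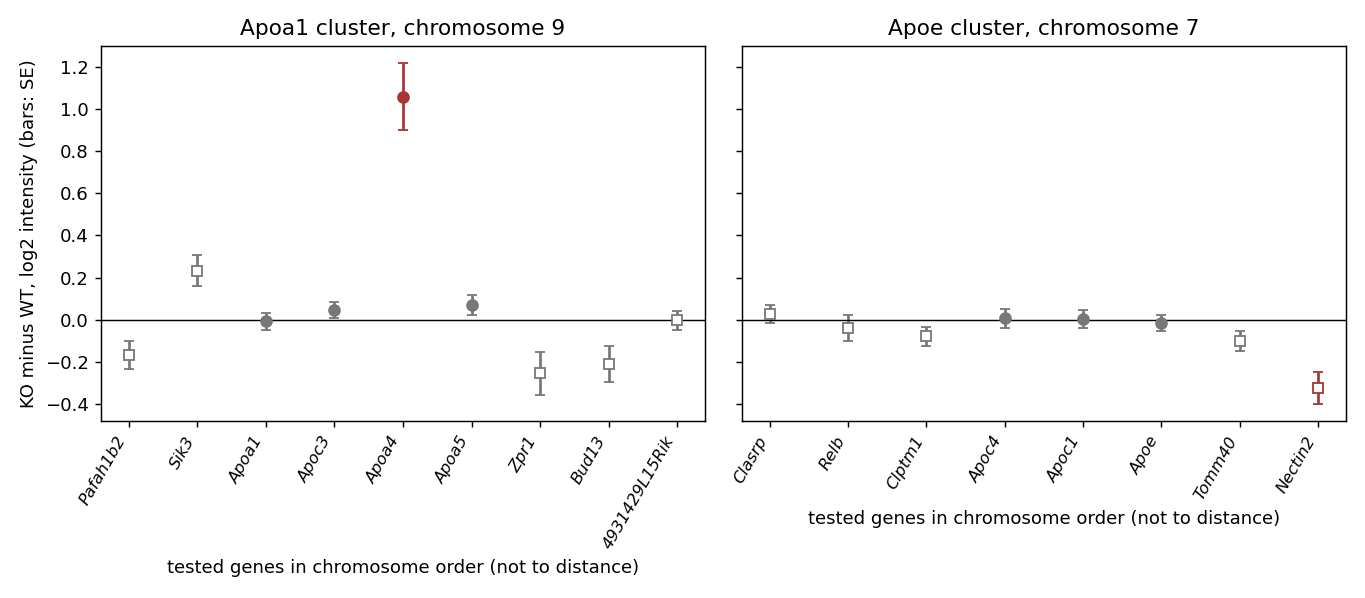
KO minus WT (log2 intensity, with SE) for the tested genes of the Apoa1 cluster on chromosome 9 and the Apoe cluster on chromosome 7, in gene order and not to distance. Filled circles are cluster genes, open squares their neighbours, and red marks genes that passed limma. Apoa4 stands at 1.06 between Apoc3 at 0.048 and Apoa5 at 0.071, and the tested Apoe cluster genes lie near 0.

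The tested genes of the Apoe cluster did not differ detectably. Apoe, which encodes the ligand for hepatic uptake of remnant particles, read 13.89, 13.90, 13.88, 13.89 and 13.88 in WT and 13.89, 13.88, 13.86, 13.89 and 13.84 in KO. The livers of both genotypes shared one narrow range. The difference was -0.014 (SE 0.037, limma adjusted p = 0.918), and the 95% interval of the fold change ran from 0.937 to 1.05. Macrophages also make apolipoprotein E, and their markers gave a mean over 10 genes of 8.86 to 9.32 in WT and 8.74 to 9.08 in KO, with 0 of 10 passing. Apoc1, which encodes an inhibitor of receptor uptake and of lipid transfer, read between 13.16 and 13.26 in WT and between 13.18 and 13.29 in KO. Its difference was 0.0027 (SE 0.042, limma adjusted p = 0.987). Apoc4 next to it differed by 0.0071. Apoc2 shares its probe set with Gm44805 and was not tested by itself. On the far side of Apoe, Nectin2 fell by 0.33 (limma adjusted p = 0.0248).

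Among the HDL proteins, Apoa1 and Apoa2 were at one level in both genotypes. Apoa1 read 13.81, 13.83, 13.82, 13.85 and 13.81 in WT and 13.85, 13.78, 13.84, 13.76 and 13.84 in KO. The KO livers spread on both sides of WT. Apoa2, the second HDL scaffold protein, read between 13.71 and 13.80 in WT and between 13.70 and 13.76 in KO. Its difference was -0.0029 (SE 0.039, limma adjusted p = 0.986). The 95% intervals of the fold change were 0.936 to 1.06 for Apoa1 and 0.941 to 1.06 for Apoa2.

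Apom read lower in KO without passing the test. Its WT values were 10.41, 10.53, 10.58, 10.75 and 10.71, and its KO values 10.29, 10.35, 10.43, 10.40 and 10.41. Only WT replicate 1 reached into the KO range. The means were 10.60 ± 0.14 and 10.37 ± 0.058 (SD, n = 5 each), and the difference was -0.22 (SE 0.065, limma adjusted p = 0.0697, unadjusted p = 0.00478). Without WT replicate 1 the difference was -0.27 and passed (limma adjusted p = 0.0241), as it did with array weights (-0.26, limma adjusted p = 0.0332). Over all alternatives the adjusted p ran from 0.0241 to 0.150.

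The core of VLDL assembly did not differ detectably. Apob, which encodes the structural protein of each VLDL particle, read 13.40, 13.40, 13.38, 13.45 and 13.39 in WT and 13.39, 13.39, 13.43, 13.40 and 13.40 in KO. The groups lay on top of each other. The difference was -0.0014 (SE 0.038, limma adjusted p = 0.993), and the 95% interval of the fold change ran from 0.944 to 1.06. Mttp read 11.86, 11.88, 11.70, 11.94 and 11.87 in WT and 11.89, 11.82, 12.03, 11.82 and 11.94 in KO. These groups overlapped over most of their range. The difference was 0.049 (SE 0.057, limma adjusted p = 0.777), with an interval of the fold change from 0.949 to 1.13.

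**Figure D3:**
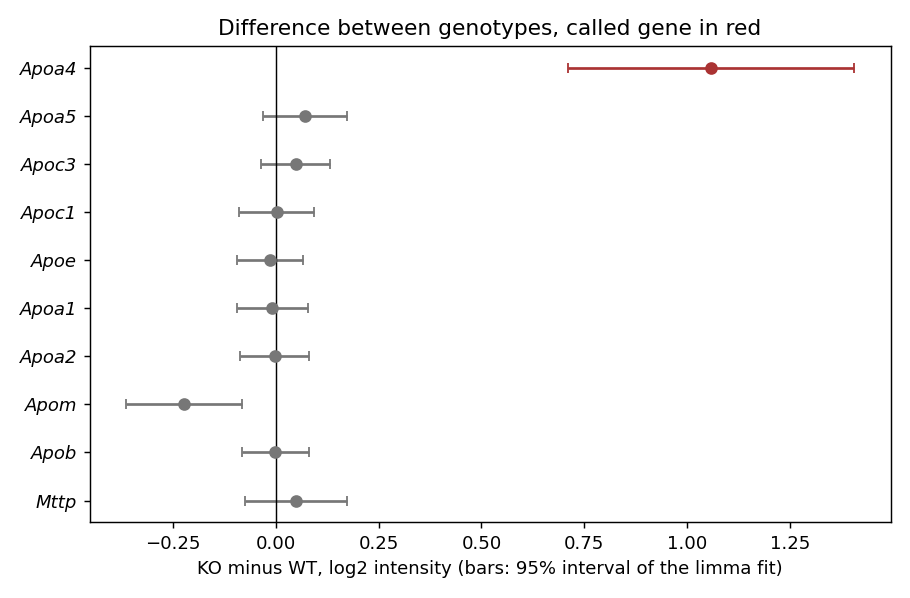
KO minus WT (log2 intensity) of the 10 genes with the 95% interval of the limma fit, the gene that passed in red. Apoa4 lies at 1.06, Apom at -0.22 with an interval below 0 although its adjusted p is 0.0697, and the other 8 intervals cross 0.

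As a list, the 10 genes had a median difference of 0.00066, against 0.0083 over all genes tested. The median size of their differences was 0.031, against 0.058 over all genes, and 5 of 10 lay above 0. These figures describe the list and are no test of it.

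Other lipoprotein genes were counted by role, from lists that hold 72 tested genes beside the 10. Of these, 8 rose, 4 fell and 60 did not pass, with a median difference of 0.0074, against 3.17% higher and 2.44% lower over all genes. The lists were chosen with earlier results of these data known, so the counts describe them and are no test. The 60 include the targeted gene Nr1d1. Without WT replicate 4, 6 rose and 8 fell.

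Genes that help VLDL through the secretory pathway went both ways. Of 20 tested, Pla2g12b rose and Sort1 and Apobec1 fell. Pla2g12b, a phospholipase A2 relative without catalytic activity that is needed for VLDL secretion, read 10.30, 10.30, 10.14, 10.40 and 10.25 in WT and 10.68, 10.66, 10.78, 10.66 and 10.61 in KO. The groups did not overlap, and the rise was 0.40 (SE 0.054, limma adjusted p = 0.000853). Sort1 encodes sortilin, a sorting receptor that binds apolipoprotein B, and it read 9.21, 9.19, 8.92, 9.57 and 9.45 in WT and 8.19, 8.31, 8.23, 8.45 and 8.23 in KO. Every KO liver lay below every WT liver, and Sort1 fell by 0.99 (SE 0.11, limma adjusted p = 0.000171).

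Apobec1 encodes the deaminase that edits Apob mRNA, which in mouse liver yields the short form, apolipoprotein B-48. It read 9.68, 10.45, 10.59, 9.79 and 9.78 in WT and 9.18, 9.29, 9.33, 9.29 and 9.58 in KO. WT replicates 2 and 3 stood above the other WT livers, and no KO liver reached the WT range. Apobec1 fell by 0.72 (SE 0.17, limma adjusted p = 0.0244). The call was lost without WT replicate 2 or any of KO replicates 1 to 4 (limma adjusted p at most 0.0597). The same happened when KO replicates 4 and 5 and WT replicate 1, the 3 arrays of widest interquartile range, were removed (limma adjusted p = 0.0530). The edited form of Apob mRNA was not measured.

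Of 9 other apolipoproteins and particle-borne proteins, Pon1 and Apon rose and 7 did not pass. Pon1, the HDL-bound paraoxonase, read 13.17 ± 0.061 in WT and 13.37 ± 0.067 in KO (SD, n = 5 each, limma adjusted p = 0.0326). Apon, which encodes apolipoprotein N, read 12.00 ± 0.085 and 12.19 ± 0.061 (SD, n = 5 each, limma adjusted p = 0.0479). The genotypes did not overlap in either gene. Leaving out 1 array ended the call of Apon for each of the 10 arrays (limma adjusted p 0.0511 to 0.105) and that of Pon1 for 7 arrays, namely each WT replicate from 1 to 4 and KO replicates 2, 4 and 5 (up to 0.0838). Without the 3 arrays of widest interquartile range both lost it (0.174 and 0.186).

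HDL receptor and processing genes rose where they passed, 2 of 8. The list as a whole did not lean upward, with 3 of 8 differences above 0 and a median of -0.039. Abca1, singled out as nearest to the threshold of those not passing, differed by -0.19 (SE 0.053, limma adjusted p = 0.0608). Scarb1, the receptor that takes cholesteryl ester from HDL, rose by 0.54 (SE 0.056, limma adjusted p = 0.000148), from 11.04 to 11.18 in WT livers to 11.57 to 11.83 in KO livers. Bmp1, a proteinase that cleaves the propeptide of apolipoprotein A-I, rose by 0.30 (SE 0.065, limma adjusted p = 0.0181). Its livers did not overlap between genotypes, and its call was lost without the 3 arrays of widest interquartile range (limma adjusted p = 0.146).

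Among genes of lipolysis and uptake, Lpl and Vldlr rose. Lpl, which encodes lipoprotein lipase, read 8.52, 8.41, 8.19, 8.25 and 8.30 in WT and 9.22, 9.55, 9.66, 9.18 and 8.96 in KO, a rise of 0.98 (SE 0.12, limma adjusted p = 0.000405). It was the only one of 5 tested lipolysis genes to pass. Vldlr, the VLDL receptor, read 6.48, 6.44, 6.95, 6.60 and 6.88 in WT and 7.43, 7.93, 7.73, 7.68 and 7.71 in KO, a rise of 1.03 (SE 0.11, limma adjusted p = 0.000194). All KO livers lay above all WT livers in both genes. For the other lipolysis genes, not passing shows neither a difference nor equal levels. Angptl8 differed by -0.95 (SE 0.33, limma adjusted p = 0.141) and Angptl4 by 0.45 (SE 0.15, limma adjusted p = 0.125), both singled out after their values were seen. Both overlapped between the genotypes. Gpihbp1 differed by 0.11 and Lmf1 by -0.0018.

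Of the 5 receptor genes tested, Mylip also rose and Lsr fell, and 2 did not pass. Mylip, a ubiquitin ligase that directs receptors of the LDL receptor family to degradation, rose by 0.40 (SE 0.055, limma adjusted p = 0.000980). Lsr, the lipolysis-stimulated lipoprotein receptor, fell by 0.38 (SE 0.054, limma adjusted p = 0.00110). Neither gene overlapped between genotypes.

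**Figure D4:**
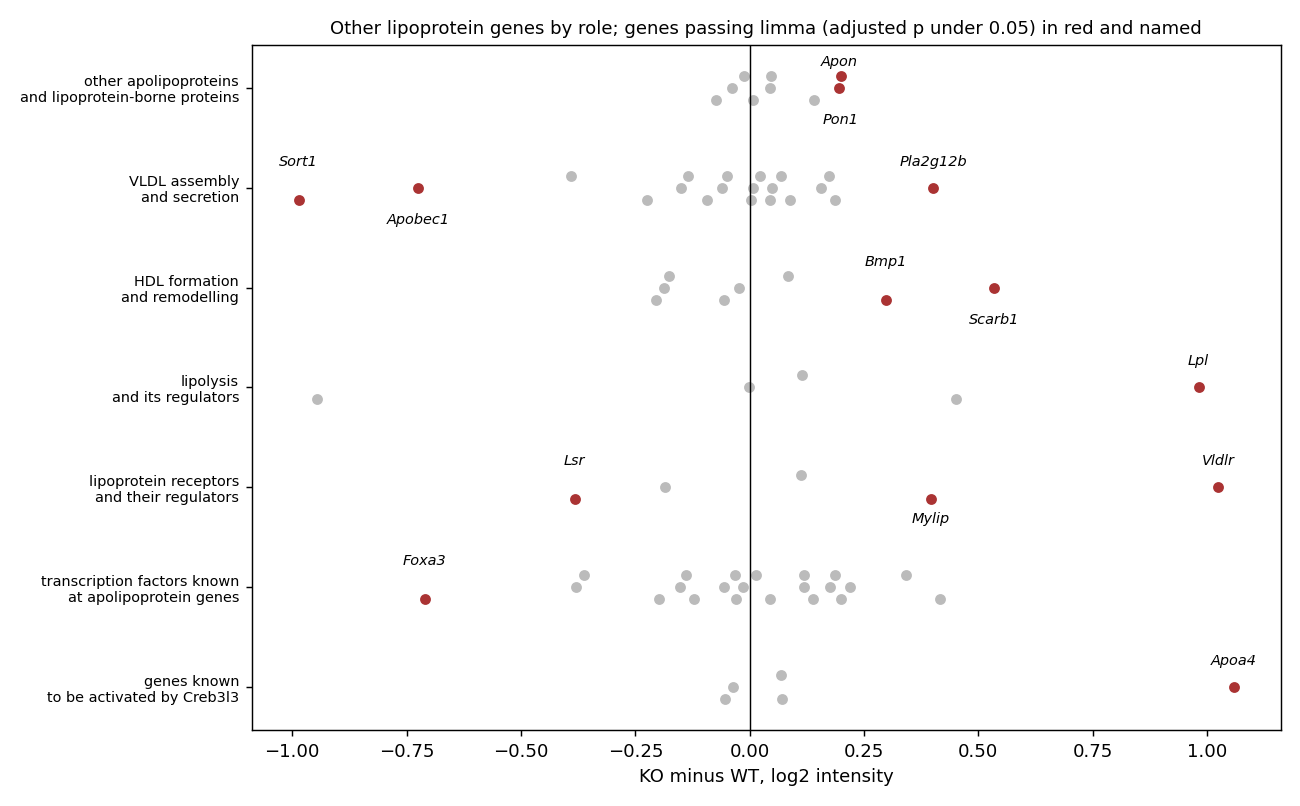
KO minus WT (log2 intensity) of single genes in the lists of other lipoprotein genes, 1 row per list and 1 point per gene, with the genes that passed limma in red and named. Vldlr at 1.03, Lpl at 0.98 and Sort1 at -0.99 lie farthest out, beside Apoa4 at 1.06.

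Transcription factors known to act at apolipoprotein genes mostly did not pass, with 1 of 22 lower and 21 not passing. The 21 include the targeted gene Nr1d1, whose reading says nothing of its function in KO. Foxa3, a forkhead factor of the liver, read 10.56, 10.90, 10.81, 10.27 and 10.52 in WT and 9.92, 9.92, 9.54, 10.00 and 10.10 in KO. It fell by 0.71 (SE 0.12, limma adjusted p = 0.00476). KO replicate 3, highest in Apoa4, was the lowest KO liver in Foxa3, as it was in 20.2% of all genes. KO replicate 5, next highest in Apoa4, was the highest KO liver in Foxa3. Hnf4a, a nuclear receptor that activates many apolipoprotein genes, differed by 0.014 (SE 0.063, limma adjusted p = 0.955). Creb3l3, a membrane-bound factor known to activate Apoa4, differed by -0.031 (SE 0.061, limma adjusted p = 0.880). Ppara differed by 0.22 (limma adjusted p = 0.377) and Rora, a receptor that shares binding elements with Rev-erb, by 0.12 (limma adjusted p = 0.488). These 4 factors were singled out for their known roles after their values were seen.

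Of the 5 tested genes known to be activated by Creb3l3, Apoa4 was the only one to pass. Fgf21, which encodes a fasting hormone of the liver, differed by 0.068 (limma adjusted p = 0.752) and Cidec, which encodes a lipid droplet protein, by -0.036 (limma adjusted p = 0.935), both chosen after their values were seen. KO replicate 3, highest in Apoa4, was also the highest liver in these. It read 6.67 in Fgf21 against 6.28 to 6.57 in the other KO livers, and 7.96 in Cidec against 7.15 to 7.57. Fgf21 was dim, under the median of every array. The same liver was highest in Apoa5, also on this list. Over all genes, KO replicate 3 was highest among the KO livers in 24.4%. KO replicate 3 was not the highest in Kiss1, the last gene of the list, at 7.87 against 7.93 in KO replicate 1. Creb3l3 itself read 11.36 in KO replicate 3, against 11.08 to 11.30 in the other KO livers. A link between these readings was not tested.

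Apoa4 is strongest in the small intestine, so enterocyte markers were read beside it. Of 9 markers, 1 passed, Fabp2, the intestinal fatty acid binding protein gene, which rose by 0.42 (limma adjusted p = 0.0405). Fabp2 read 10.27, 10.01, 9.75, 9.89 and 10.07 in WT and 10.27, 10.44, 10.74, 10.38 and 10.23 in KO, and KO replicate 3 was again the highest. The list's mean ran from 6.89 to 6.93 in WT and from 6.91 to 7.12 in KO. The enterocyte markers Sis, Cdh17 and Slc15a1 stayed under each array's lower quartile in all 10 livers. Vil1, Lct, Alpi and Cdx2 were also dim, with group means from 5.98 to 6.79, under the median of every array. Anpep was bright, with means of 11.99 in WT and 12.02 in KO. The part of the enterocyte markers in the Apoa4 result was not tested. Of the other marker lists, that of sinusoidal endothelium, a cell type on which lipoproteins are cleared, had the largest median difference, 0.19, with 7 of 8 markers above 0 and 0 of 8 passing. Its mean ran from 9.36 to 9.73 in WT and from 9.45 to 9.82 in KO, and its part in the rises given here was not tested.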

How the data were processed

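RNA of each liver was labelled with the Ambion WT expression kit and hybridized to its own array, per the labels' protocols. The authors deposited normalized intensity values for 27541 probe sets, on a linear scale from 8.93 to 18280. The tools named are RMA, per the submitters' processing notes, and Partek, with no version for either. The number of arrays limits the precision. Log2 was taken here.

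Probe sets were named through GEO's platform annotation: 21631 had 1 symbol, 1317 several and 4593 none. Only the first kind was tested, and the probe set of highest mean stood for each of the 951 genes with more. The genotypes were compared with lmFit and eBayes of limma 3.58.1 in R 4.3.3, two-sided and without covariates, with p adjusted over all 19933 genes. Nothing in the labels gives batches or pairs. A running number in the sample titles goes through all WT and then all KO samples, and the labels do not say what it counts. Anything it follows cannot be told apart from genotype. The labels state that each sample is a single mouse. The step was tested on simulated data. Alternatives were all probe sets, their mean per gene, no dim genes, median centring, quantile normalization, trend with robust eBayes, array weights, log2(value + 16), and arrays left out singly or as the 3 of widest interquartile range.

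The 10 genes and all lists were chosen with earlier results of these data known. Genes named beside the 10 are those of each list that passed, the genes around both clusters, and a few singled out where the text says so. List entries without a probe set of their own were not analysed here. Marker lists of stellate cells (0 of 8 passed), cholangiocytes (1 of 5, Sox9, higher by 0.62), adipocytes (0 of 4) and neutrophils (0 of 5) were also read. The order of genes was taken from a RefSeq table (GRCm38.p6), whose build was not matched to the array annotation.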

Additional observations from a re-analysis of the deposited data

Results flagged for a closer look

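In 3 of 20 groups of 5 livers, 1 liver stood far from the other 4 for one of the 10 lipoprotein genes. KO replicate 3 read 12.51 for Apoa5, with the other KO livers at 12.34 to 12.38. WT replicate 4 read 13.45 for Apob, with the other WT livers at 13.38 to 13.40. WT replicate 5 read 13.16 for Apoc1, with the others at 13.24 to 13.26. Chance flags about 1 in 20 groups, and 44 groups were screened when the 12 named genes of the other lists are included, with 3 beyond the limit in all. KO replicate 3 was also the highest liver in Apoa4, Mttp and Fabp2.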

How the results depend on the processing

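The Apoa4 call and its 3 ratios within the cluster kept their direction and side of the threshold in every alternative run, the former at 0.89 to 1.19 with 1 array left out. The ratio differences then ran from 0.91 to 1.19 (Apoa1), 0.84 to 1.14 (Apoc3) and 0.85 to 1.10 (Apoa5). Their exact permutation adjusted p was 0.0159, the smallest possible with 1 array left out. These ratios repeat the separation of Apoa4 itself and add no separate evidence. Among the 10 genes, array weights gave 2 calls, Apom being the second, and leaving out 1 array gave 1 to 2. Among the 72 other genes, leaving out 1 array gave 9 to 14 calls against 12, with 6 higher and 8 lower without WT replicate 4 against 8 and 4 with all arrays. Over all genes it gave 805 to 1248 against 1119, and leaving out the 3 arrays of widest interquartile range gave 527.

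Apoa1, Apoa2, Apob and Apoc1, all near 0, changed sign in some alternatives, while the other 6 genes kept theirs in all 19. With quantile normalization Apoa1 read 0.0014, Apoa2 0.0021 and Apoc1 -0.017, and with arrays centred on their medians Apoc1 read -0.0089. With 1 array left out, Apoa1 ran from -0.018 to 0.0062, Apoa2 from -0.011 to 0.010, Apob from -0.0086 to 0.0097 and Apoc1 from -0.016 to 0.017. None of these 4 passed the test in limma in any alternative. Among the other named genes, Apon lost its call in 13 of 19 alternatives, Pon1 in 9, Apobec1 in 6 and Bmp1 in 1, and the remaining 8 kept theirs. The cause was not tested. No paired analysis was possible because the replicate numbers follow the order of deposit, and no number in the sample titles is shared between genotypes.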
